A study of Mus musculus with 9 samples.

Results

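miR-338 and miR-219, microRNAs (miRNAs) of myelinating cells, were followed through the hippocampal RNA of 9 mice on Agilent mouse miRNA arrays. Their entries were taken by name, as every entry of the array that begins with mmu-miR-219 or mmu-miR-338, all arms included. That gave 5 of the 1247 mouse miRNAs on the array, namely mmu-miR-338-3p, mmu-miR-338-5p, mmu-miR-219-5p, mmu-miR-219-1-3p and mmu-miR-219-2-3p. These families, and the marker lists used below, were chosen with earlier results of these data known. The study asked which hippocampal miRNAs respond to PM2.5, the fine particulate matter of outdoor air. Male C57BL/6 mice, about 8 weeks old and with no transgene or deletion named, received material into the airways by oropharyngeal aspiration on alternate days over 4 weeks. The 3 groups were control (saline), PM2.5 at 1 mg/kg body weight and PM2.5 at 5 mg/kg body weight, with 3 mice in each and 1 array per mouse. Whether the 3 mice of a group were treated in separate experiments is not given for single arrays, so p-values measure only the spread between these samples.

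A miRNA is cut from a hairpin precursor and guides the silencing of messenger RNAs that pair with its seed, the bases near its 5′ end. A hairpin has a 5p and a 3p arm, and either can give a mature miRNA. In the brain miR-219 and miR-338 are best known from oligodendrocytes, the cells that wrap axons in myelin, where they repress factors that hold precursor cells back from differentiation. The RNA here came from whole hippocampus, in which fewer cells of a type and less of a miRNA per cell cannot be told apart.

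The mature sequences are shown because each array entry detects 1 arm and because the seed, in capitals, is what tells these arms apart as regulators. They are taken from RefSeq on mouse build GRCm38.p6, written 5′ to 3′, and they matched 4 of the 5 entries.
mmu-miR-338-3p: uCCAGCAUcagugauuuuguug
mmu-miR-338-5p: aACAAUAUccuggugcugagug
mmu-miR-219-5p (RefSeq mmu-miR-219a-5p): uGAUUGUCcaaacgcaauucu
mmu-miR-219-1-3p (RefSeq mmu-miR-219a-1-3p): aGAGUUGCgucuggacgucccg
The 4 seeds differ from each other, and 0 other mouse mature miRNAs of the RefSeq table share any of them. For mmu-miR-219-2-3p the stretch that its longest probe pairs with is shown instead, as the array file gives the probe.
mmu-miR-219-2-3p, target of the 17-base probe: uguggcuggacaucugu

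The 5 arms come from 3 hairpins, all transcribed from the minus strand. The Mir338 hairpin lies at chr11:120014765-120014862, within the span of the protein-coding gene Aatk, and gives both miR-338 arms. On the opposite strand it is overlapped by Mir3065, whose arms are on the array but were not detected well enough to be tested. The Mir219a-1 hairpin lies at chr17:34024983-34025092, between Ring1 and H2-Ke6, and is overlapped by Mir219c. The Mir219a-2 hairpin lies at chr2:29845631-29845727, within the span of Cercam, and is overlapped by Mir219b. The annotation used gives gene spans and not exons. The 2 Mir219a hairpins carry the same 5p arm, so the signal of mmu-miR-219-5p can come from either locus, whereas the 3p arms differ and each belongs to 1 locus.
Mir338 hairpin, with the mature arms in capitals: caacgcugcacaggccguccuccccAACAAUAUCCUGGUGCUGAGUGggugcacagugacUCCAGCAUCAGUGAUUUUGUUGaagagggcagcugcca
Mir219a-2 hairpin, with the 5p arm in capitals: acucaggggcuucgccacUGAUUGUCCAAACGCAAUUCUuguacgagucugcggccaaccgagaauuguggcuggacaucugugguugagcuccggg

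Values are log2 of a miRNA's background-subtracted signal over the 75th percentile of its array, so that 0 is the level of that percentile. They compare 1 miRNA between arrays and do not rank different miRNAs, whose probes bind unequally. Tests covered the 424 miRNAs that every array of 1 or more groups detected. Between 410 and 436 miRNAs were detected per array, 0 spots were saturated, and the arrays correlated with each other at 0.982 to 0.998 on the log2 scale. The number of arrays limits the precision. The arrays lay on 2 slides. The 3 control arrays and 1 mg/kg replicate 1 shared row 1 of slide 1, the other two arrays at 1 mg/kg shared row 2 of it with 5 mg/kg replicates 1 and 2, and 5 mg/kg replicate 3 was alone on slide 2.

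Of the 5 entries, 4 were detected on all 9 arrays and were tested. The exception, mmu-miR-219-1-3p, the 3p arm of Mir219a-1, was detected on 0 of 9 arrays, and 0% of the spots of its 4 probes were well above background, so no level can be given for it. The 3p arm of the other Mir219a hairpin, mmu-miR-219-2-3p, was read by 2 probes with 100% of spots well above background, as were mmu-miR-219-5p and mmu-miR-338-3p. The entry mmu-miR-338-5p was dim. Of its 4 probes, which are 12 to 15 bases long, the 2 shortest had 0% of spots well above background, and the others 100% and 70.2%. Its summed signal was 28.2 to 53.4 units, against 5.99 to 8.10 units for the faintest detected miRNA of an array.

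The 3p arm of miR-338, the guide strand best known from myelinating cells, had 1.88, 1.35 and 1.63 in control replicates 1 to 3. The arrays of the 1 mg/kg group had 1.52, 1.86 and 1.74. Those of the 5 mg/kg group had 0.86, 1.29 and 2.01. The lowest and the highest of the 9 arrays were thus both from the 5 mg/kg group, 2.22-fold apart, and the groups overlapped.

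The 5p arm of the same hairpin, mmu-miR-338-5p, had -3.52, -3.88 and -3.88 in the controls. The values were -3.81, -3.55 and -3.52 at 1 mg/kg, and at 5 mg/kg -4.29, -3.85 and -3.64. Its lowest array was again 5 mg/kg replicate 1, while its highest was 1 mg/kg replicate 3, with 1.71-fold between them.

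mmu-miR-219-5p, the arm that both Mir219a loci share, had 0.64, 0.12 and 0.86 in the controls. At 1 mg/kg it had 0.68, 0.94 and 0.67, and at 5 mg/kg -0.41, 0.0054 and 0.87. The first and second 5 mg/kg arrays were the lowest of all 9, whereas the third was the second highest. The whole range was 2.54-fold.

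mmu-miR-219-2-3p, which only the Mir219a-2 locus gives, had -0.32, -0.97 and -0.65 in the controls. Those at 1 mg/kg had -0.72, -0.30 and -0.22, and at 5 mg/kg -1.61, -1.09 and -0.19. Its lowest 2 and its highest array all belonged to the 5 mg/kg group, which spanned 2.68-fold, and the groups overlapped. The plot of signal by array sets the 4 side by side.

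**Figure D1:**
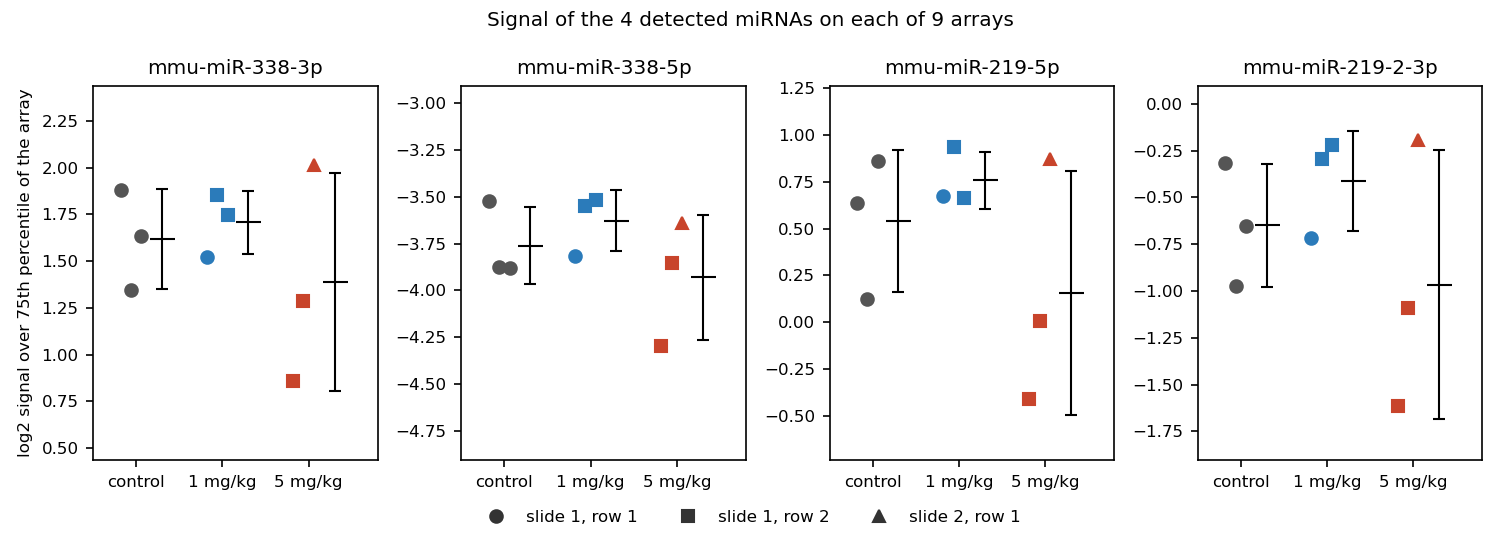
Log2 signal over the 75th percentile of the array (vertical axis, a span of 2 log2 units in every panel) for the 4 detected miRNAs in control, 1 mg/kg and 5 mg/kg mice. Each point is 1 array, its shape gives slide and row, and the bar beside each group is mean ± SD of 3 arrays. In every panel 5 mg/kg replicate 1 is the lowest point and 5 mg/kg replicate 3, alone on slide 2, lies above the other two of its group.

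The spread between arrays was widest in the 5 mg/kg group for all 4 miRNAs. The SD of the log2 signal at 5 mg/kg was 0.58 for mmu-miR-338-3p, 0.33 for mmu-miR-338-5p, 0.65 for mmu-miR-219-5p and 0.72 for mmu-miR-219-2-3p. In the controls these SDs were 0.27, 0.21, 0.38 and 0.33, and at 1 mg/kg 0.17, 0.16, 0.15 and 0.27, in the same order. Over all 424 miRNAs tested the median SD was 0.13 in the controls, 0.12 at 1 mg/kg and 0.13 at 5 mg/kg. Ranked from the widest at 5 mg/kg, mmu-miR-219-2-3p was number 12, mmu-miR-219-5p number 14, mmu-miR-338-3p number 19 and mmu-miR-338-5p number 59 of 424. These ranks are a description, and the difference in spread between groups was not tested. The 5 mg/kg group was the only one on both slides, with replicate 3 alone on slide 2 and highest of its group for all 4. A spread between mice and a difference between slides cannot be told apart there.

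**Figure D2:**
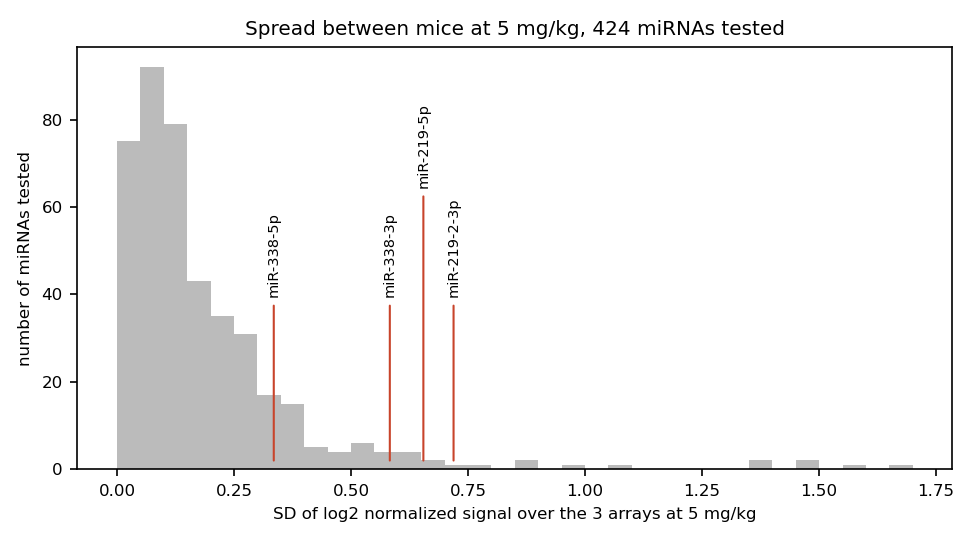
SD of the log2 normalized signal over the 3 arrays at 5 mg/kg (horizontal axis) against the number of miRNAs (vertical axis, 424 tested). The red lines mark mmu-miR-338-5p at 0.33, mmu-miR-338-3p at 0.58, mmu-miR-219-5p at 0.65 and mmu-miR-219-2-3p at 0.72, in the upper tail of the distribution, whose median is 0.13.

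At 1 mg/kg the group means of all 4 miRNAs lay slightly above the control means, by less than the SE. That SE rests on 1 spread pooled over all 3 groups, with the 5 mg/kg group and its 2 slides included. From the arrays of control and 1 mg/kg only, the SE of mmu-miR-219-5p was 0.19. The difference on the log2 scale was 0.087 ± 0.27 (SE) for mmu-miR-338-3p, 0.13 ± 0.18 for mmu-miR-338-5p, 0.22 ± 0.31 for mmu-miR-219-5p and 0.24 ± 0.34 for mmu-miR-219-2-3p. The adjusted p-values (limma, Benjamini-Hochberg over 424 miRNAs) ran from 0.865 to 0.943. Of the 4, 0 reached an unadjusted p under 0.05, which 7.78% of all tested miRNAs did, and 0 had groups without overlap, against 12.3% of all. The 95% interval of the difference was narrowest for mmu-miR-338-5p, from -0.27 to 0.54, and widest for mmu-miR-219-2-3p, from -0.53 to 1.01.

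At 5 mg/kg the means lay below those of the controls for all 4, by less than the SD of the 5 mg/kg arrays. The differences were -0.23 ± 0.27 (SE) for mmu-miR-338-3p, -0.17 ± 0.18 for mmu-miR-338-5p, -0.39 ± 0.31 for mmu-miR-219-5p and -0.32 ± 0.34 for mmu-miR-219-2-3p. The adjusted p-values from limma were 0.712 to 0.795. Again 0 of 4 had an unadjusted p under 0.05, beside 9.43% of all tested miRNAs, and 0 of 4 had groups without overlap, beside 16.0%. The 95% intervals ran from -1.10 to 0.45 over the 4.

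Between the doses the differences were larger in size, with the 5 mg/kg mean below the 1 mg/kg mean by 0.30 to 0.60 on the log2 scale. As 5 mg/kg minus 1 mg/kg they were -0.32 ± 0.27 (SE) for mmu-miR-338-3p, -0.30 ± 0.18 for mmu-miR-338-5p, -0.60 ± 0.31 for mmu-miR-219-5p and -0.56 ± 0.34 for mmu-miR-219-2-3p. The adjusted p from limma was 0.995 for each. Here too 0 of 4 had an unadjusted p under 0.05, beside 3.77% of all tested, and 0 of 4 had groups without overlap, beside 7.31%. The contrasts of each dose share the control arrays, and the last contrast is their difference, so the 3 are not separate evidence.

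Nor did a trend over control, 1 mg/kg and 5 mg/kg pass a test. Per step of group order the slope was -0.12 log2 units for mmu-miR-338-3p (two-sided exact permutation p = 0.470 over all arrangements of the 9 arrays in 3 groups of 3). It was -0.084 for mmu-miR-338-5p (exact p = 0.456), -0.19 for mmu-miR-219-5p (exact p = 0.355) and -0.16 for mmu-miR-219-2-3p (exact p = 0.464).

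The 5 mg/kg values turned on single arrays. Without 5 mg/kg replicate 3, and equally with the slide as a block, since slide 2 holds only that array, the differences from control became -0.55 for mmu-miR-338-3p, -0.31 for mmu-miR-338-5p, -0.74 for mmu-miR-219-5p and -0.70 for mmu-miR-219-2-3p. Then 3 of 4 had an unadjusted p under 0.05, but so had 28.3% of all tested miRNAs, and the adjusted p-values from limma lay between 0.165 and 0.27. In the same arrays the differences from 1 mg/kg were -0.63, -0.45, -0.96 and -0.94 in that order, with 4 of 4 at an unadjusted p under 0.05 beside 8.25% of all tested, and adjusted p-values of 0.379 to 0.494. Without 5 mg/kg replicate 1 the differences from control were instead 0.029, 0.014, -0.10 and 0.0058.

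The slide row moved with the groups as well, and its part was not tested beyond these values. Within row 2, which held 2 arrays of each dose, the 5 mg/kg mean was lower than the 1 mg/kg mean by 0.73, 0.54, 1.00 and 1.10 log2 units for mmu-miR-338-3p, mmu-miR-338-5p, mmu-miR-219-5p and mmu-miR-219-2-3p. Within row 1 of slide 1 the single 1 mg/kg array differed from the control mean by -0.099, -0.054, 0.13 and -0.067 in the same order. With the row number as a block over all 9 arrays, the difference of 5 mg/kg from control shrank to -0.013, -0.12, -0.069 and -0.084, and 0 of 4 had an unadjusted p under 0.05 in either comparison of the 5 mg/kg group, beside 3.30% of all tested against control and 4.01% against 1 mg/kg. The row number takes row 1 of both slides together, so among the 5 mg/kg arrays only replicate 3 shared it with the controls. With row and slide together as a block, an alternative chosen after seeing the data, the differences were instead -0.83, -0.59, -0.87 and -1.16. Those link 5 mg/kg to control only through 1 mg/kg replicate 1, the only exposed array in row 1 of slide 1.

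**Figure D3:**
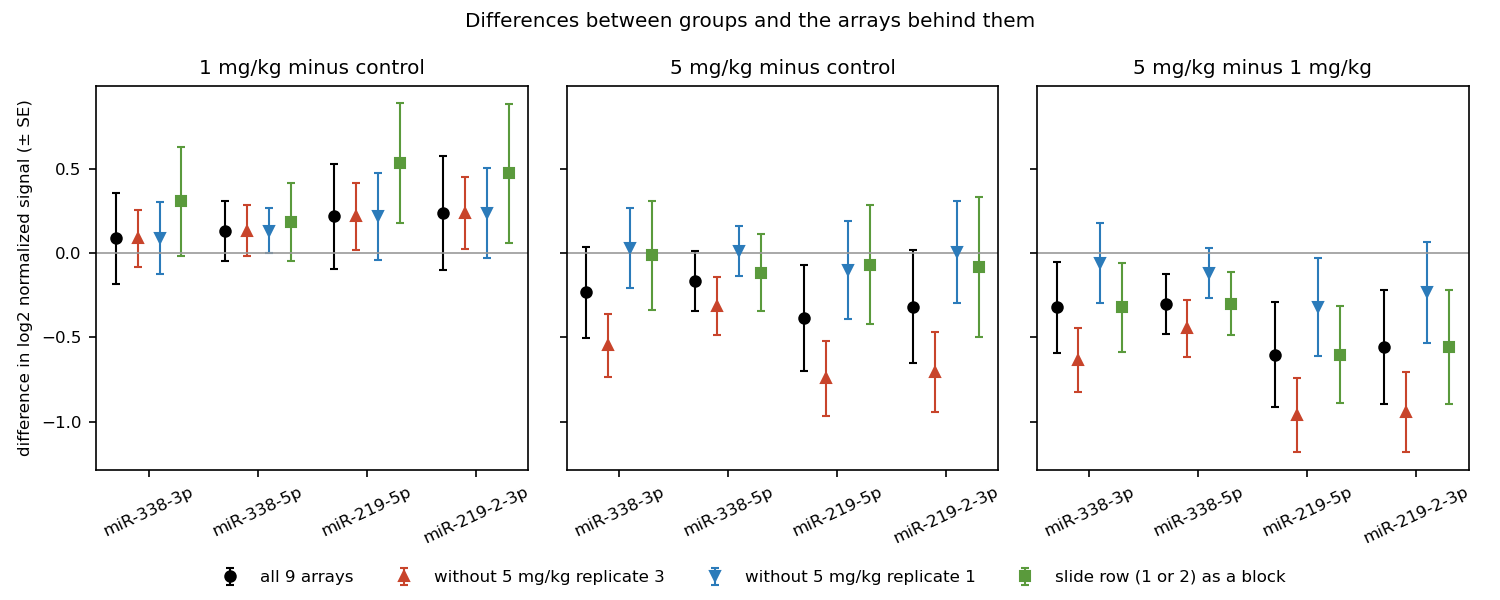
Difference in log2 normalized signal between groups (vertical axis, ± SE) for the 4 miRNAs in each of the 3 comparisons. Black circles use all 9 arrays, red and blue triangles leave out 5 mg/kg replicate 3 or replicate 1, and green squares add the slide row as a block. The 5 mg/kg differences from control lie between -0.31 and -0.74 without replicate 3 and between -0.10 and 0.029 without replicate 1.

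Both probes of each bright entry gave nearly the same difference. For mmu-miR-338-3p the 2 probes differed from control by 0.10 and 0.082 at 1 mg/kg and by -0.20 and -0.25 at 5 mg/kg. For mmu-miR-219-5p they gave 0.21 and 0.22 at 1 mg/kg and -0.39 and -0.38 at 5 mg/kg, and for mmu-miR-219-2-3p 0.25 and 0.23, then -0.31 and -0.32. The longer probes of mmu-miR-338-5p gave 0.084 and 0.089 at 1 mg/kg and -0.15 and -0.24 at 5 mg/kg. Probes of 1 entry share the RNA and much of their sequence, so they are not replicates of a mouse.

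Between the arms of a hairpin, differences across the groups were smaller than the spread. The log2 distance of mmu-miR-338-3p over mmu-miR-338-5p differed from control by -0.045 at 1 mg/kg and -0.065 at 5 mg/kg (two-sided exact permutation p = 0.8 for both). The distance of mmu-miR-219-5p over mmu-miR-219-2-3p differed by -0.021 (exact p = 1) and -0.068 (exact p = 0.9). With 20 arrangements of 3 arrays against 3 the smallest p such a test can give is 0.1, so these comparisons could not have passed 0.05.

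Between arrays the 4 miRNAs varied together. This variation includes 5 mg/kg replicate 3, alone on slide 2, for which mouse and slide cannot be told apart. Over the 9 arrays mmu-miR-338-3p and mmu-miR-219-2-3p, which come from hairpins on chromosomes 11 and 2, had a Pearson r of 0.98 (exact permutation p = 6.6e-05, adjusted p = 0.0020 over 30 relations) and a Spearman rho of 0.93 (exact permutation p = 0.00075, adjusted p = 0.022). For mmu-miR-338-3p and mmu-miR-219-5p r was 0.92 (exact permutation p = 0.00089, adjusted p = 0.0092) and rho 0.75 (exact p = 0.025, adjusted p = 0.109). These pairs do not share a hairpin.

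The arms that do share one gave similar values. For mmu-miR-338-3p and mmu-miR-338-5p r was 0.91 (exact permutation p = 0.0017, adjusted p = 0.0104) and rho 0.73 (exact p = 0.031, adjusted p = 0.117). For mmu-miR-219-5p and mmu-miR-219-2-3p r was 0.91 (exact permutation p = 0.0012, adjusted p = 0.0092) and rho 0.78 (exact p = 0.017, adjusted p = 0.103). Across families, mmu-miR-338-5p had r = 0.94 with mmu-miR-219-2-3p (exact permutation p = 0.00094, adjusted p = 0.0092; rho 0.77, exact p = 0.021, adjusted p = 0.107), and r = 0.78 with mmu-miR-219-5p, which did not pass the adjustment (exact permutation p = 0.014, adjusted p = 0.0597; rho 0.42, exact p = 0.27, adjusted p = 0.404). By Pearson r 5 of 6 pairs passed, and by rank 1 of 6.

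Leaving out the 2 arrays farthest from the median of the first miRNA named, r became 0.96 for mmu-miR-338-3p with mmu-miR-219-2-3p, 0.83 with mmu-miR-219-5p and 0.85 with mmu-miR-338-5p. It became 0.85 for mmu-miR-338-5p with mmu-miR-219-2-3p, 0.53 for mmu-miR-338-5p with mmu-miR-219-5p, and 0.68 for the miR-219 arms. Taken as deviations from the group means, r stayed between 0.69 and 0.99 over the 6 pairs. Without 5 mg/kg replicate 1 alone, only mmu-miR-338-3p with mmu-miR-219-2-3p still passed the adjustment (r = 0.96 at the lowest over all arrays left out), and the other four pairs that had passed had adjusted exact permutation p-values of 0.0792 to 0.134. A row of a slide held at most 4 arrays, too few for a correlation within it. The pairs with mmu-miR-338-5p also depended on the background correction. The normexp method adds an offset of 50 units to every spot, so the sum over the 4 probes of this arm held more offset than signal. This method gave r = 0.099 with mmu-miR-338-3p and 0.081 with mmu-miR-219-2-3p.

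**Figure D4:**
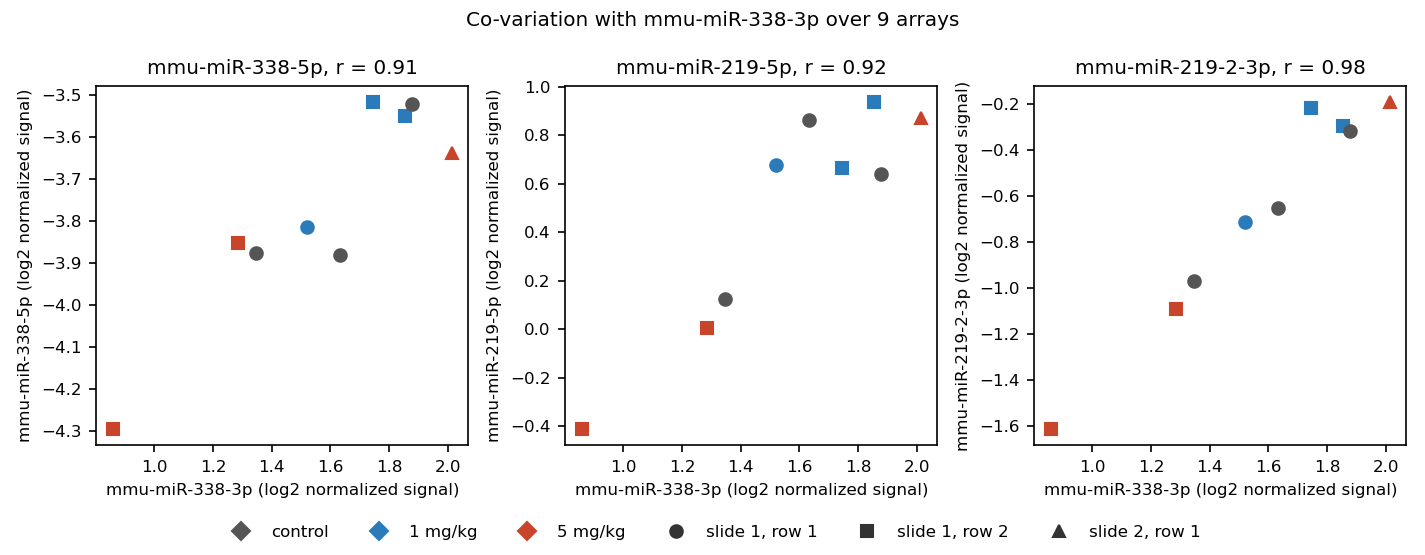
Log2 normalized signal of mmu-miR-338-3p (horizontal axes) against mmu-miR-338-5p, mmu-miR-219-5p and mmu-miR-219-2-3p (vertical axes) on 9 arrays. Colour gives the group and shape the slide and row. The points of mmu-miR-219-2-3p lie closest to a line (r = 0.98), with 5 mg/kg replicate 1 at the low end and 5 mg/kg replicate 3 at the high end.

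Set against the other 394 miRNAs detected on all 9 arrays, the miR-338 and miR-219 arms were among each other's closest. The miRNA with the highest r to mmu-miR-338-3p, and to mmu-miR-338-5p, was mmu-miR-219-2-3p, and the one closest to mmu-miR-219-5p, and to mmu-miR-219-2-3p, was mmu-miR-338-3p. The weakest pair, mmu-miR-338-5p with mmu-miR-219-5p, ranked 11 and 12 from its own sides. With the 391 miRNAs that belong to neither family the median r was -0.0035 for mmu-miR-338-3p and -0.046 to -0.049 for the other three. The lowest r over the same 391 was -0.94 for mmu-miR-338-3p, -0.96 for mmu-miR-338-5p, -0.87 for mmu-miR-219-5p and -0.94 for mmu-miR-219-2-3p. Some miRNAs outside the families thus varied inversely to the arms about as closely as the arms varied together.

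The miRNAs outside the families with the highest r were few and recurred. mmu-miR-21a-5p and mmu-miR-181b-5p stood among the closest 5 of all 4 arms, with r of 0.87 to 0.98 and 0.83 to 0.97. mmu-miR-350-3p stood among the closest 5 of mmu-miR-338-3p, mmu-miR-338-5p and mmu-miR-219-2-3p, with r of 0.92 to 0.95, and mmu-miR-15b-5p among those of mmu-miR-338-5p (0.86) and mmu-miR-219-2-3p (0.92). mmu-miR-192-5p (0.93) and mmu-miR-423-5p (0.93) completed the set of mmu-miR-338-3p, and mmu-miR-26b-5p (0.89) that of mmu-miR-338-5p. For mmu-miR-219-5p the set also held mmu-miR-133a-3p (0.88) and mmu-miR-133b-3p (0.86), which are known from muscle, and mmu-miR-140-5p (0.83), and mmu-miR-133a-3p was in that of mmu-miR-219-2-3p too (0.89). All these values share the 9 arrays and their scaling, and they were picked as the highest of many, so they are a description with no test.

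mmu-miR-21a-5p had 1.62, 1.13 and 1.37 in the controls, 1.29, 1.52 and 1.60 at 1 mg/kg, and 0.92, 1.09 and 1.67 at 5 mg/kg. Its lowest array was 5 mg/kg replicate 1, as for all 4 arms, and its highest 5 mg/kg replicate 3, as for mmu-miR-338-3p and mmu-miR-219-2-3p.

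Markers of other cells were set beside these values, as the log2 of the summed normalized signal of each list. The vessel wall list (miR-126 arms, miR-143-3p and miR-145a-5p, all 4 tested) had the highest correlation with the arms, with r of 0.60 to 0.77 and rho of 0.48 to 0.83, and exact permutation p-values for r that adjusted to 0.0597 to 0.168. Its sum ran from 2.57 to 2.70 in the controls, 2.64 to 2.72 at 1 mg/kg and 2.60 to 2.77 at 5 mg/kg. That sum was mostly miR-126-3p, the member with the most signal, at 2.42 to 2.63 over the arrays. On 5 mg/kg replicate 3, where the arms were highest of their group, miR-126-3p was also highest of its group (2.63). There miR-143-3p (-1.39) and miR-145a-5p (-3.21) were lowest of theirs, with miR-126-5p in between (-2.68). The r with the sum therefore does not describe the 4 members as a set. As deviations from the group means the r with this list was 0.80 to 0.95. Its part in the values of the miR-219 and miR-338 arms was not tested.

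The neuronal list (5 of 5 tested) had r of 0.21 to 0.39 with the arms and rho of 0.067 to 0.53, with adjusted exact permutation p-values of 0.382 to 0.643 for r. Its sum ran from 7.01 to 7.29 in the controls, 6.75 to 7.05 at 1 mg/kg and 6.90 to 7.20 at 5 mg/kg. Its defining member miR-124-3p, the miRNA best known from neurons, was detected on every array, at 5.61 to 5.80 in the controls, 5.45 to 5.62 at 1 mg/kg and 5.56 to 5.80 at 5 mg/kg. Of the 5 neuronal miRNAs 0 had an unadjusted p under 0.05 in any comparison. Their median difference was -0.15 at 1 mg/kg and -0.049 at 5 mg/kg, beside -0.032 and -0.0035 over all tested miRNAs. From 1 to 5 mg/kg, 5 of 5 neuronal miRNAs had higher means, with a median of 0.097 beside 0.041 over all tested. In that contrast 288 of the 424 tested miRNAs were higher and 136 lower, so a higher mean was the common direction. All 4 arms had lower means there, but they varied together over the arrays and are not 4 separate observations.

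A list of other miRNAs with reported roles in oligodendrocyte lineage cells gave mixed signs. All 13 were on the array and 11 were tested. In the 1 mg/kg group 3 were higher and 8 lower than control, with a median of -0.031. Of all tested miRNAs 169 were higher and 255 lower. Within the list 0 had an unadjusted p under 0.05. At 5 mg/kg 4 were higher and 7 lower, with a median of -0.046, beside 207 higher and 217 lower of all tested. In the list 1 passed that threshold, miR-92a-3p, of a cluster known to promote cell proliferation (-0.31 ± 0.13, adjusted p = 0.502). Between the doses the median was -0.029 beside 0.041 over all tested, and 1 passed, miR-9-5p, a miRNA of neural progenitors, at 0.17 ± 0.065 (adjusted p = 0.995). The summed level of the list ran from 5.04 to 5.14 in the controls, 5.08 to 5.16 at 1 mg/kg and 5.16 to 5.27 at 5 mg/kg. There it was higher on each array than on any array of the other groups. Of all single miRNAs tested, 16.0% had groups without overlap against control and 7.31% against 1 mg/kg. The sum was opposite in sign to the list's medians, in which each miRNA counts equally. In the sum, miRNAs with more signal weigh more. The one with the most, miR-9-5p, ran from 4.23 to 4.34 in the controls, 4.23 to 4.35 at 1 mg/kg and 4.43 to 4.45 at 5 mg/kg. The part of the list in the values of the arms was not tested. The sum had r of -0.73 to -0.69 with the arms and rho of -0.50 to -0.33, with adjusted exact permutation p-values of 0.0855 to 0.0877 for r. For mmu-miR-219-5p that r went from -0.73 to -0.045 without its 2 farthest arrays, 5 mg/kg replicates 1 and 2, on which it rested. Without the 2 farthest arrays of each other arm, r was -0.69 for mmu-miR-338-3p, -0.59 for mmu-miR-338-5p and -0.57 for mmu-miR-219-2-3p.

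The choroid plexus list, the secretory epithelium of the ventricles, had the largest median differences of the 6 lists at 1 mg/kg and between the doses, and its r with the arms was -0.012 to 0.27, with rho of -0.23 to 0.30 and adjusted exact permutation p-values of 0.595 to 0.976 for r. Its 3 miRNAs were all higher at 1 mg/kg than in the controls, with a median of 0.77, beside 169 higher of the 424 tested miRNAs. In the list 1 had an unadjusted p under 0.05, miR-204-5p at 0.77 ± 0.28 (adjusted p = 0.538). Against control at 5 mg/kg the median was -0.16. From 1 to 5 mg/kg all 3 were lower, with a median of -0.83, beside 136 lower of the 424 tested miRNAs. All 3 had an unadjusted p under 0.05 with an adjusted p of 0.995 from limma. The differences were -0.83 ± 0.28 for miR-204-5p, -0.59 ± 0.22 for miR-211-5p and -1.62 ± 0.68 for miR-448-3p. On 5 mg/kg replicate 3 miR-448-3p lay at the floor, the faintest detected signal of that array (-6.26), and its SD at 5 mg/kg was 1.35. Each of the 3 was lowest on that array, so they are not 3 separate observations. The sum of the list was 1.62 to 2.29 in the controls, 2.42 to 3.13 at 1 mg/kg and 1.51 to 2.48 at 5 mg/kg. The differences of the miR-219 and miR-338 arms have the same signs. As deviations from the group means, the r of the list's sum with the arms was negative for all 4, from -0.42 to -0.14. The part of dissected choroid plexus in the values of the arms was not tested.

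Of the blood list 2 of 3 miRNAs were on the array and tested. At 5 mg/kg 1 had an unadjusted p under 0.05, miR-451a, the main miRNA of red cells, at 0.26 ± 0.10 against control (adjusted p = 0.469) and 0.29 ± 0.10 against 1 mg/kg (adjusted p = 0.995). The sum of the list was 1.53 to 1.89 in the controls, 1.57 to 1.81 at 1 mg/kg and 1.92 to 2.03 at 5 mg/kg, and its r with the arms was -0.63 to -0.48, with rho of -0.63 to -0.25 and adjusted exact permutation p-values of 0.135 to 0.272 for r. Of the immune cell list 4 of 5 were tested, and 1 had an unadjusted p under 0.05 at 5 mg/kg, the leukocyte and microglial miR-142-3p at 0.21 ± 0.084 (adjusted p = 0.469). The sum of that list was -1.02 to -0.99 in the controls, -1.01 to -0.88 at 1 mg/kg and -0.93 to -0.88 at 5 mg/kg, and its r with the arms was -0.60 to -0.46, with rho of -0.55 to -0.37 and adjusted exact permutation p-values of 0.144 to 0.296 for r. In the vessel wall list 1 of 4 had an unadjusted p under 0.05, miR-143-3p of smooth muscle at 1 mg/kg, at 0.29 ± 0.11 (adjusted p = 0.543). The median differences at 1 mg/kg, at 5 mg/kg and between the doses were 0.029, 0.33 and 0.30 for the blood list, 0.11, 0.12 and 0.034 for the immune list, and 0.12, 0.082 and -0.050 for the vessel wall list. By these counts 0 miRNAs of any of the 6 lists passed the adjustment in any comparison. The counts at an unadjusted p under 0.05 stand beside 7.78% of all tested miRNAs at 1 mg/kg, 9.43% at 5 mg/kg and 3.77% between the doses.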

How the data were processed

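Total hippocampal RNA was labelled with Cy3 and hybridised by the authors to 1-colour Agilent mouse miRNA arrays, which were read with Agilent Feature Extraction 10.7 per the file headers. The deposited spot intensities are background-subtracted and not normalized between arrays. The authors also deposited log2 values made with GeneSpring, with a normalization that the sources used here do not give, and those were used as an alternative. Their log2 values correlated at 0.99 with log2 of the summed probe totals on each array, and their medians were -3.32 to -3.29.

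Outlier spots (1875 to 2290 of 49880 per array) were left out, spots were averaged per probe and probes summed per miRNA. Sums were scaled by the array's 75th percentile (492 to 614 units), taken over the 395 miRNAs found on all 9 arrays, raised to the faintest detected signal where lower, and log2-transformed. The 3 groups were fitted together over 424 miRNAs with limma 3.58.1 in R 4.3.3, with Benjamini-Hochberg adjustment. Slopes, arm distances and correlations were tested by exact permutation in Python 3.11.15 with scipy 1.17.1. The steps were tested on simulated data. Mir338 and Mir219a positions come from matching probe targets to RefSeq hairpins of GRCm38.p6. The miRNAs and the marker lists were chosen with earlier results of these data known. Every arm of both families is reported, list members are named where an unadjusted p was under 0.05 or where they define a cell type, and for each arm the 5 other miRNAs with the highest r are named. Alternatives were other signals, background corrections, scalings, filters, samples and blocks, and each array left out.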

Additional observations from a re-analysis of the deposited data

How the results depend on the processing

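The differences between groups never passed an adjusted p of 0.05, under 17 other settings or with any of the 9 arrays left out. From 1 to 5 mg/kg the direction was the same in all of these. At 1 mg/kg the difference from control turned negative for mmu-miR-338-5p with normexp (-0.044). With row and slide together as a block, an alternative chosen after seeing the data, it turned negative for mmu-miR-338-3p (-0.099), mmu-miR-338-5p (-0.054) and mmu-miR-219-2-3p (-0.067), and the differences at 5 mg/kg were -1.16 to -0.59. With arrays left out, it ranged from -0.049 to 0.22 for mmu-miR-338-3p, negative without control replicate 2. It ranged from 0.072 (without control replicate 3) to 0.25 (without control replicate 1) for mmu-miR-338-5p, from 0.0084 (without control replicate 2) to 0.38 (without control replicate 3) for mmu-miR-219-5p, and from 0.076 (without control replicate 2) to 0.40 (without control replicate 1) for mmu-miR-219-2-3p. At 5 mg/kg the ranges were -0.55 to 0.029 for mmu-miR-338-3p, -0.31 to 0.014 for mmu-miR-338-5p and -0.70 to 0.0058 for mmu-miR-219-2-3p, each positive only without 5 mg/kg replicate 1. The slopes ranged likewise from -0.25 to 0.020, from -0.13 to 0.017 and from -0.31 to 0.021.

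The r of mmu-miR-338-5p with mmu-miR-219-5p passed the adjustment with the median of detected miRNAs as the scale (0.80), quantile normalization (0.81), the deposited log2 values (0.86), the summed probe totals (0.82, chosen after seeing the data) and the total gene signal of the files (0.93). That last value holds the signal of mmu-miR-338-3p, as given under the other observations. With arrays left out it ranged from 0.51 to 0.89. Under normexp, r no longer passed the adjustment for mmu-miR-338-3p with mmu-miR-338-5p (0.099) and for mmu-miR-338-5p with mmu-miR-219-2-3p (0.081). There the offset, summed over the probes of the dim arm, is larger than its signal. With arrays left out, the r of mmu-miR-338-3p was 0.79 to 0.94 with mmu-miR-338-5p and 0.83 to 0.95 with mmu-miR-219-5p, that of mmu-miR-338-5p with mmu-miR-219-2-3p was 0.88 to 0.96, and that of the miR-219 arms 0.81 to 0.95. Replicate numbers were not treated as pairs, since deviations of same-numbered arrays correlated from -0.65 to 0.74. The replicate block gave -0.23 for mmu-miR-338-3p at 5 mg/kg (limma adjusted p = 0.791) and changed no call. Without scaling between arrays, the median of all tested miRNAs at 5 mg/kg moved from -0.0035 to 0.11, and mmu-miR-338-3p from -0.23 to -0.12.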

Other observations

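The total gene signal that the array files list for mmu-miR-338-5p contained that of mmu-miR-338-3p. In control replicate 1 it was 737 units, of which 727 equalled the total gene signal of mmu-miR-338-3p and the remaining 9.12 the summed totals of its own probes. Over the 9 arrays, the part beyond the total of mmu-miR-338-3p differed from the summed totals of its own probes by 0.069 units at most. Between 24.6% and 27.1% of the miRNAs detected on an array had a total gene signal more than 10% above the sum of their own probe totals. Values in the report use the spot signals, in which this was not seen.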
